A study of Homo sapiens with 4 samples.

Results

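DNA replication machinery genes are described here by their RNA synthesis in K562 cells after rapid depletion of IWS1, a factor that travels with elongating RNA polymerase II. The group is a list of 58 named genes that encode the proteins that license origins, open DNA, copy it, join the new strands and supply nucleotides. Of these, 52 are among the 10147 genes of the deposited transient transcriptome sequencing (TT-seq) table, and they were taken by gene name, not by their values. The other 6 listed genes, *MCM7*, *POLA1*, *PRIM2*, *RPA3*, *TOP2B* and *CHAF1A*, are not rows of the table and are not analysed here. Each of these 6 shares its span with another RefSeq gene, and in 5 of them that gene lies on the same strand, as the 3 microRNA genes inside *MCM7* do. Of the 52 genes with values, 26 overlap another gene and 3 of them *POLD3*, *RFC1* and *WDHD1*, do so on the same strand.

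TT-seq captures RNA made while cells take up the labelled nucleotide 4-thiouridine (4sU), which was given for 5 min at 500 µM. All 4 libraries came from a genome-edited line of K562, a human chronic myelogenous leukemia line, in which IWS1 carries a degradation tag (dTAG) at its N-terminus. The 2 dIWS1 libraries were treated with 500 nM dTAG7, the ligand that sends the tagged protein to degradation, and the 2 control libraries with the solvent DMSO, each for 1 h. The control cells therefore carry the tag too, and which edited clone gave the libraries is not given in the sources used here. The table holds only means over libraries, from which the reads per library column were recovered: 1 control column, which enters the means with a weight of 2, and 2 dIWS1 columns, called column 1 and column 2 because they carry no replicate number. The control is therefore 1 column in every test, and the spread between replicates was seen for dIWS1 only.

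The control column held 29832118 reads in genes, while columns 1 and 2 of dIWS1 held 20684301 and 20886697, and the reads quoted below are before scaling. Every one of the 52 replication genes had at least 100 reads in each column, from 162 to 13793. *IWS1* itself had 3684, 2334 and 2427 reads, and its log2 ratio of dIWS1 to control was −0.55 (SE 0.15, limma adjusted p = 0.00078). This does not measure the depletion, since the ligand removes the protein and not the transcript. Markers listed for K562 were in the table for 13 of 17 genes, *GATA1*, *TAL1*, *HBG1* and *ABL1* among them, at 18.3 to 518 normalized reads per kb. Of 15 genes listed as markers of other cell types 4 were present, *KRT18*, *KRT8*, *PTPRC* and *VIM*, at 52.2 to 809 normalized reads per kb in the control column. Which cells these reads came from was not tested. At an adjusted limma p under 0.05, 8 of the 13 were called lower (61.5%) and 3 of the 4 (75%), where 64.5% of all genes were, and 0 were called higher in either list, where 0.109% of all genes were (0 also at an unadjusted limma p under 0.05). Their part in the results for replication genes was not tested.

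DNA replication starts at origins, where the origin recognition complex (ORC) with CDC6 and CDT1 loads the ring of MCM2 to MCM7. In S phase the kinase CDC7 with its activator DBF4, and CDC45 with the GINS complex, turn that ring into the active helicase. DNA polymerase alpha with primase lays primers, polymerases epsilon and delta extend them on the clamp PCNA, and FEN1 and LIG1 finish the lagging strand. Many of these genes are known targets of E2F factors, which switch them on as cells enter S phase.

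Sequence letters that these factors bind are frequent in the promoters of the group. Letters of the E2F type (TTTCCCGC, TTTGGCGC, TTTCGCGC or TTTGCCGC, on either strand, matches may overlap) were found in 19 of 52 listed genes with a RefSeq promoter sequence (36.5%), in a window from 250 bases before to 50 after the start site. Such letters were in 5.92% of the 7911 promoters of genes in the table and in 3.37% of all 27305 promoters. CCAAT letters, which NF-Y binds, were in 30 of the 52 promoters (57.7%, against 37.8% for genes in the table and 35.7% for all). The letters of the cell cycle homology region (TTTGAA or TTCGAA) were in 5 (9.62%, against 10.8% and 16.3%). The sites below were picked only among the genes that hold such letters. Some belong to the lowest ratios of dIWS1 to control among those genes (*POLA2*, *LIG1*, *ORC3*, *MCM2*). The others belong to genes with ratios nearer to 0 (*GINS2*, *TYMS*, *GINS3*), *GINS3* being the highest of the genes that hold such letters. Each site is written along the strand of its gene from RefSeq GRCh38.p14, with the letters of 1 match in capitals. In *MCM2* a second match, GCGCGAAA, overlaps the marked one and runs on into the lower case letters.
POLA2: gctcccggTTTCGCGCatgcgtgc
LIG1: tcacccctTTTCCCGCcctcctcc
ORC3: gagggcgcGCGGGAAAtcccgagt
MCM2: gaaccactTTTCGCGCgaaacctg
GINS2: tcgccgtgGCGGGAAAacggcggc
TYMS: ggacggccGCGGGAAAaggcgcgc
GINS3: ccccgggcGCGGGAAAcgagtttc
The sequences lie at chr11:65261901-65261924 (plus strand) for *POLA2*, chr19:48170443-48170466 (minus) for *LIG1*, chr6:87590115-87590138 (plus) for *ORC3*, chr3:127598405-127598428 (plus) for *MCM2*, chr16:85688970-85688993 (minus) for *GINS2*, chr18:657606-657629 (plus) for *TYMS* and chr16:58392458-58392481 (plus) for *GINS3*. The first capital letter is 53 bases before the start site in *POLA2*, 114 before it in *LIG1*, 12 in *ORC3*, 31 in *GINS2*, 39 in *TYMS* and 5 in *GINS3*, and 2 bases after it in *MCM2*. The 17 genes of the table with these letters had a median log2 ratio of dIWS1 to control of −0.37 and the 35 others, with or without a promoter sequence, one of −0.35. *RRM2*, *ORC6* and *DBF4*, the genes with the highest ratios, have none of these letters in the window. Neither do *PRIM1* (−0.71), *CDC45* (−0.60) and *CHAF1B* (−0.58), which are among the genes with the lowest ratios.

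RNA synthesis from most replication genes was lower in dIWS1 than in control when libraries were scaled by spike-ins, and this direction was lost when they were scaled by their total reads in genes. With spike-ins the median log2 ratio of the 52 genes was −0.36 (quartiles −0.50 and −0.25, range −0.76 to 0.01). The median over all 10136 genes with reads was −0.43. A gene was called at a Benjamini-Hochberg adjusted p under 0.05 over all genes from limma voom, and by this rule 31 of the 52 replication genes were lower (59.6%) and 0 higher, while 21 were not called. Across all genes 64.5% were called lower and 0.109% higher, so the share of replication genes that fell was close to that of the whole table. At an unadjusted p under 0.05 there were 35 lower and 0 higher, and limma trend, the other test run, called 25 lower and 0 higher. The shares of all genes under these rules were not computed, so the counts cannot be set against the whole table. Scaling by total reads moved the median gene from −0.41 to 0.03 and put 20 replication genes below the control and 32 above. With it 4 were called lower (*POLA2*, *LIG1*, *PRIM1*, *MCM2*) and 7 higher (*RRM2*, *ORC6*, *DBF4*, *ORC4*, *GMNN*, *RFC5*, *MCM8*). The background of that scaling was 10.5% lower and 14.5% higher. Because it decides the direction, values below are given on the spike-in scale together with the position relative to the median gene. In bulk RNA, fewer cells in S phase and less RNA per cell cannot be told apart.

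**Figure D1:**
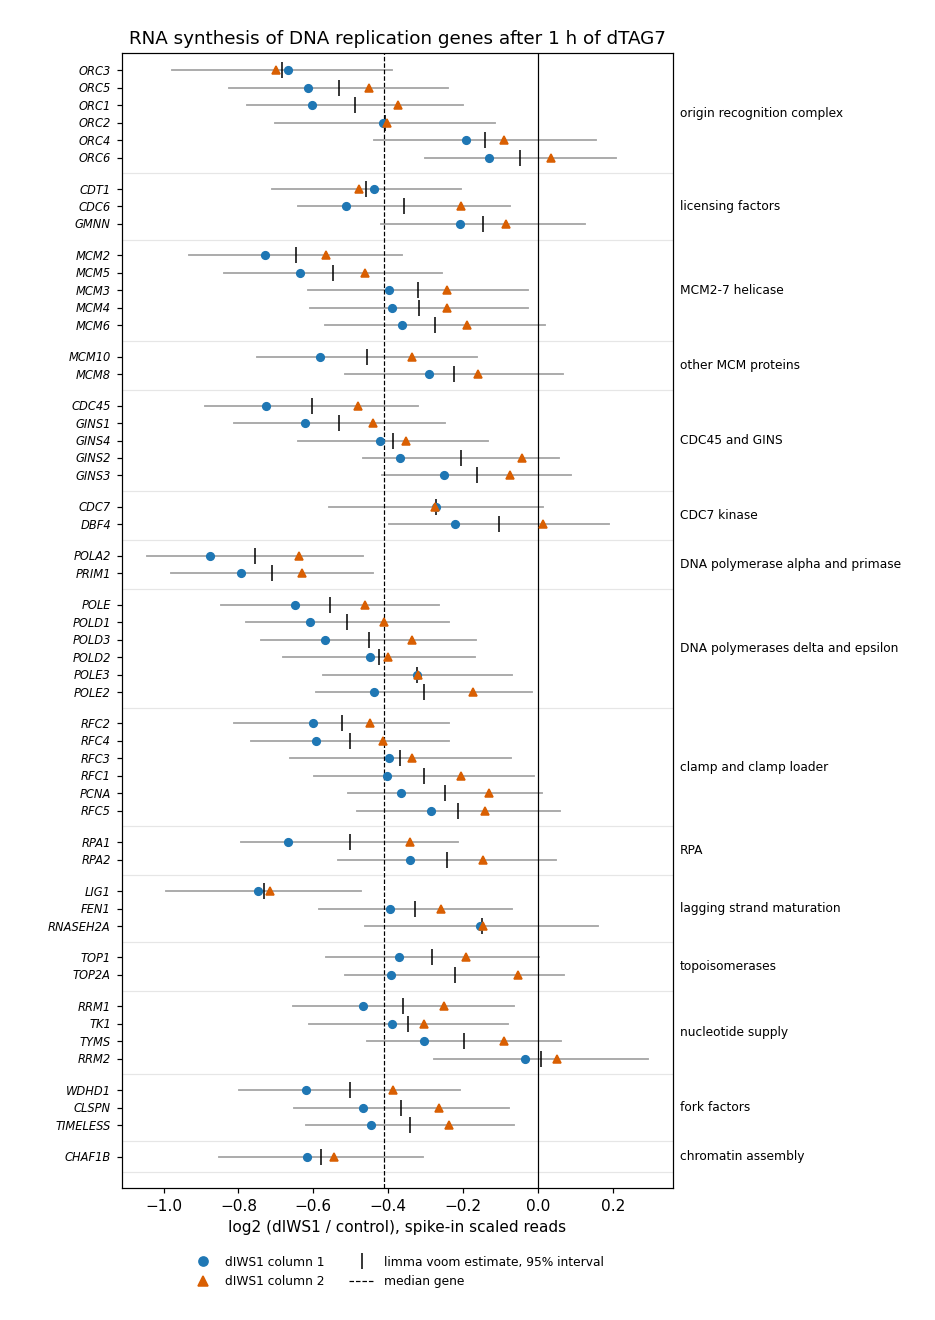
Log2 ratio of dIWS1 to control (x axis, spike-in scaled reads) for the 52 replication genes, grouped by role on the y axis; circles and triangles are dIWS1 columns 1 and 2, bars are the limma voom estimate and grey lines its 95% interval, and the dashed line is the median gene at −0.41. Estimates run from −0.76 for *POLA2* to 0.01 for *RRM2*, and the triangles lie to the right of the circles for 49 genes; with total reads in place of spike-ins 32 of the 52 lie above 0.

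The recognition complex that marks origins had the widest range of ratios of the roles described here. *ORC3* (chr6:87590135-87677823) had 4707 reads in control and 2915 and 2638 in the dIWS1 columns, and *ORC6* (chr16:46689659-46698394) had 795, 714 and 741. After scaling, both dIWS1 columns of *ORC3* lay well below the control, while those of *ORC6* lay on either side of it. The log2 ratio was −0.68 for *ORC3* (SE 0.15, adjusted p = 3.38e-05) and −0.05 for *ORC6* (SE 0.13, 95% interval −0.30 to 0.21, adjusted p = 0.738). The difference between the 2 subunits was −0.54 in column 1 and −0.73 in column 2, each with a counting error of 0.08. This pair, like each pair compared below, is the lowest and highest gene of its role by this same ratio. A gap was therefore set by the choice of the pair and is a description only. Its error covers counting alone, and both columns share the same control reads. *ORC5*, *ORC1* and *ORC2* fell too, by 0.53, 0.49 and 0.41 on the log2 scale, and *ORC4* was at −0.14 (adjusted p = 0.388). With total reads 3 of the 6 subunit genes were below the control.

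Licensing factors act with ORC to load the helicase, and geminin restrains them. *CDT1*, which brings MCM proteins to the origin, had 660 reads in control and 479 and 431 in dIWS1, a log2 ratio of −0.46 (SE 0.13, adjusted p = 0.00115). *CDC6*, the ATPase that loads them, had 2178, 1502 and 1720 reads and a log2 ratio of −0.36 (adjusted p = 0.0235). Its dIWS1 columns stood further apart than those of most members, at −0.51 and −0.21. *GMNN*, which encodes the CDT1 inhibitor geminin, had 1417, 1207 and 1215 reads and a log2 ratio of −0.15 (95% interval −0.42 to 0.13, adjusted p = 0.332). Of these 3 genes 1, *CDT1*, was below the control with total reads.

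Of the helicase genes 2 of 5 were called lower under spike-in scaling, where 64.5% of all genes were. *MCM2* (chr3:127598411-127622436) had 2326 reads in control and 1380 and 1429 in dIWS1, and *MCM5* had 3262, 2064 and 2158. Their log2 ratios were −0.65 (SE 0.14, adjusted p = 4.66e-05) and −0.55 (SE 0.15, adjusted p = 0.000766). *MCM3* had 5777, 4312 and 4446 reads, *MCM4* 2908, 2181 and 2236, and *MCM6* 3385, 2587 and 2703. In all 3 genes both dIWS1 columns were under the control, with log2 ratios of −0.32, −0.32 and −0.28, but they were not called (adjusted p = 0.0501, 0.0501 and 0.0901). *MCM2* was below *MCM6* by −0.37 in column 1 and −0.38 in column 2 (counting error 0.06 in each). The ring they form holds an equal number of each subunit. With total reads *MCM2* and *MCM5* were below the control, *MCM2* being called lower, and the other 3 were above it. *MCM10*, an initiation factor, had 3887, 2555 and 2805 reads and fell by 0.46 (adjusted p = 0.00524), and *MCM8*, which acts in recombination, had 2741, 2204 and 2234 reads with a log2 ratio of −0.23 (adjusted p = 0.163).

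CDC45 and the 4 GINS subunits join the MCM ring to make the working helicase. *CDC45* (chr22:19479466-19520612) had the most reads of any member in control, 13793, and 8201 and 8997 in dIWS1, where *TOP1* had more. The log2 ratio of *CDC45* was −0.60 (SE 0.15, adjusted p = 0.000154). *GINS1* fell by 0.53 and *GINS4* by 0.39 on the log2 scale. *GINS2* had 1042, 793 and 920 reads and *GINS3* 542, 448 and 468. Their log2 ratios were −0.21 and −0.16 (adjusted p = 0.155 and 0.24), and column 2 of *GINS2*, at −0.04, was almost level with the control. With total reads *CDC45* and *GINS1* were below the control and the other 3 above it. Of the genes of the kinase that fires origins, 0 of 2 were called lower with spike-ins, where 64.5% of all genes were. *CDC7*, the catalytic subunit, had 2340, 1906 and 1761 reads and a log2 ratio of −0.27 (adjusted p = 0.0855). *DBF4*, its activator, had 5323, 4490 and 4891 reads and a log2 ratio of −0.10 (95% interval −0.40 to 0.19, adjusted p = 0.524).

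DNA polymerase alpha and primase, the enzyme that starts every new strand, gave 2 of the 3 lowest ratios. *POLA2* (chr11:65261962-65305985), the second subunit of polymerase alpha, had 3038 reads in control and 1627 and 1778 in dIWS1. *PRIM1* (chr12:56731580-56752323), the catalytic primase subunit, had 1523, 865 and 896. Columns 1 and 2 were both well below the control, at −0.88 and −0.64 for *POLA2* and at −0.79 and −0.63 for *PRIM1*. Their log2 ratios were −0.76 (SE 0.15, 95% interval −1.05 to −0.47, adjusted p = 3.16e-06) and −0.71 (SE 0.14, adjusted p = 2.91e-06), and both stayed below the control and were called with total reads (−0.32, adjusted p = 0.018, and −0.27, adjusted p = 0.0282). The genes of the remaining subunits of this enzyme, *POLA1* and *PRIM2*, are the ones not analysed here.

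Of the polymerases that extend the primers, 5 of 6 genes were called lower with spike-ins, where 64.5% of all genes were, and 3 of 6 were below the control with total reads. *POLE*, the catalytic subunit of the leading strand polymerase epsilon, had 7516, 4712 and 4972 reads and a log2 ratio of −0.56 (SE 0.15, adjusted p = 0.000667). *POLE2*, its second subunit, had 2527, 1833 and 2041 reads and a log2 ratio of −0.31 (adjusted p = 0.0567). *POLE3*, a histone-fold subunit, fell by 0.32. *POLD1*, *POLD3* and *POLD2*, subunits of the lagging strand polymerase delta, fell by 0.51, 0.45 and 0.42 on the log2 scale. *POLE* was below *POLE2* by −0.21 in column 1 and −0.29 in column 2, with a counting error of 0.05 in each.

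The sliding clamp and its loader were called lower for 3 of 6 genes with spike-ins, where 64.5% of all genes were. *PCNA* (chr20:5114953-5126622), the clamp, had 952 reads in control and 726 and 791 in dIWS1, a log2 ratio of −0.25 (SE 0.13, 95% interval −0.51 to 0.01, adjusted p = 0.0833). Among the loader subunits *RFC2*, *RFC4* and *RFC3* fell by 0.52, 0.50 and 0.37. *RFC2*, the lowest, had 2593, 1681 and 1731 reads (SE 0.15, adjusted p = 0.00108). *RFC1* and *RFC5* were at −0.31 and −0.21 (adjusted p = 0.0614 and 0.158). *RFC5*, the highest, had 1433, 1156 and 1183 reads. With total reads *RFC2* and *RFC4* were below the control and the other 4 above it. *RPA1*, the large subunit of the protein that coats single-stranded DNA, had 2889, 1790 and 2075 reads and fell by 0.50 (SE 0.15, adjusted p = 0.00185), whereas *RPA2* had 2951, 2292 and 2425 and a log2 ratio of −0.24 (adjusted p = 0.132). *RPA1* was below *RPA2* by −0.33 in column 1 and −0.19 in column 2, with a counting error of 0.06 in each.

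Genes for maturing the lagging strand differed widely among themselves, and 2 of 3 were called lower with spike-ins, where 64.5% of all genes were. *LIG1* (chr19:48115445-48170344), the ligase that seals the fragments, had 1088 reads in control and 637 and 603 in dIWS1. *FEN1*, the nuclease that trims their flaps, had 947, 708 and 720. *RNASEH2A*, the catalytic subunit of the enzyme that removes ribonucleotides, had 197, 174 and 162, the fewest of any member. Their log2 ratios were −0.73 (SE 0.13, adjusted p = 5.91e-07), −0.33 (SE 0.13, adjusted p = 0.0226) and −0.15 (SE 0.16, adjusted p = 0.385). *LIG1* was below *RNASEH2A* by −0.59 in column 1 and −0.57 in column 2, with a counting error of 0.17 in each that reflects the low reads of *RNASEH2A*. With total reads *LIG1* alone of these 3 was below the control, and it was called lower there too.

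Nucleotide supply included the highest ratio of the group. *RRM2* (chr2:10122568-10211010), the small subunit of ribonucleotide reductase, had 2142 reads in control and 2058 and 2018 in dIWS1. After scaling, column 1 was at −0.03 and column 2 at 0.05, so that the dIWS1 columns lay on both sides of the control. Its log2 ratio was 0.01 (SE 0.15, 95% interval −0.28 to 0.29, adjusted p = 0.962). *RRM1*, the large subunit of the same enzyme, had 4203, 2988 and 3213 reads and fell by 0.36 (SE 0.15, adjusted p = 0.0283). The difference between *RRM1* and *RRM2* was −0.43 in column 1 and −0.30 in column 2 (counting error 0.06 in each). *TK1*, thymidine kinase, had 1225, 920 and 903 reads and fell by 0.35 (adjusted p = 0.0191). *TYMS*, thymidylate synthase, had 976, 777 and 834 reads and a log2 ratio of −0.20 (adjusted p = 0.17). With total reads 0 of these 4 genes were below the control.

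Of the topoisomerases, which take the twist out of DNA, 0 of 2 genes were called lower with spike-ins, where 64.5% of all genes were. *TOP1* had 12864 reads in control and 9779 and 10256 in dIWS1, a log2 ratio of −0.28 (SE 0.15, 95% interval −0.57 to 0.00, adjusted p = 0.0748). *TOP2A* had 6413, 4808 and 5630 reads and a log2 ratio of −0.22 (SE 0.15, adjusted p = 0.171), with −0.39 in column 1 and −0.05 in column 2. Of the genes that hold the fork together, *WDHD1*, which ties polymerase alpha to the helicase, had 4852, 3106 and 3378 reads and fell by 0.50 (adjusted p = 0.00221). *CLSPN*, the checkpoint mediator claspin, fell by 0.37. *TIMELESS*, which protects the fork, had 1766, 1275 and 1363 reads and fell by 0.34 (adjusted p = 0.0272). *CHAF1B*, a subunit of the assembly factor that puts nucleosomes on new DNA, had 1622, 1041 and 1012 reads and fell by 0.58 (SE 0.14, adjusted p = 0.000152). With total reads *WDHD1* and *CHAF1B* were below the control and the other 4 above it.

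Relative to the median gene, most replication genes differed little from the rest of the table. The shift was set so that the median gene, taken over genes whose mean reached 100 normalized reads, was at 0, and the median of the 52 genes was then 0.05, with 31 above 0 and 21 below. Both dIWS1 columns were above their own median gene for 28 of the 52 (53.8%, against 42.8% of all genes with such a mean). By limma voom 1 replication gene, *RRM2*, was higher (0.42, adjusted p = 0.0497) and 0 were lower, where 2.68% of all genes were called higher and 5.2% lower. At an unadjusted p under 0.05 there were 3 higher and 3 lower, against 9.04% of all genes higher and 12.6% lower. Limma trend called 0 in either direction. Its share of all genes was not computed, so this count cannot be set against the whole table. The call of *RRM2* lies at the threshold and was lost when genes with a mean under 10 were left out (adjusted p = 0.0512). The next highest member, *ORC6*, was at 0.36 (adjusted p = 0.0586). *POLA2*, *LIG1* and *PRIM1* were at −0.34, −0.32 and −0.30 (adjusted p = 0.135, 0.122 and 0.177).

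The errors depended on how the dIWS1 columns were scaled. With spike-ins column 2 lay above column 1 for most genes, by 0.12 for the median gene. When each column was scaled by its own total reads, an alternative chosen after seeing the data, the standard errors of the members fell from between 0.13 and 0.16 to between 0.05 and 0.14, and 10 members were called relative to the median gene. *POLA2* (−0.34, adjusted p = 0.0147), *LIG1* (−0.32, adjusted p = 0.0283), *PRIM1* (−0.30, adjusted p = 0.0217), *ORC3* (−0.27, adjusted p = 0.0382) and *MCM2* (−0.24, adjusted p = 0.0322) were lower. *RRM2* (0.42, adjusted p = 0.00706), *ORC6* (0.36, adjusted p = 0.019), *DBF4* (0.31, adjusted p = 0.0174), *ORC4* (0.27, adjusted p = 0.0167) and *GMNN* (0.27, adjusted p = 0.0271) were higher. The background under this scaling was 12.3% of all genes lower and 11.2% higher, above the share of the replication genes in each direction.

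**Figure D2:**
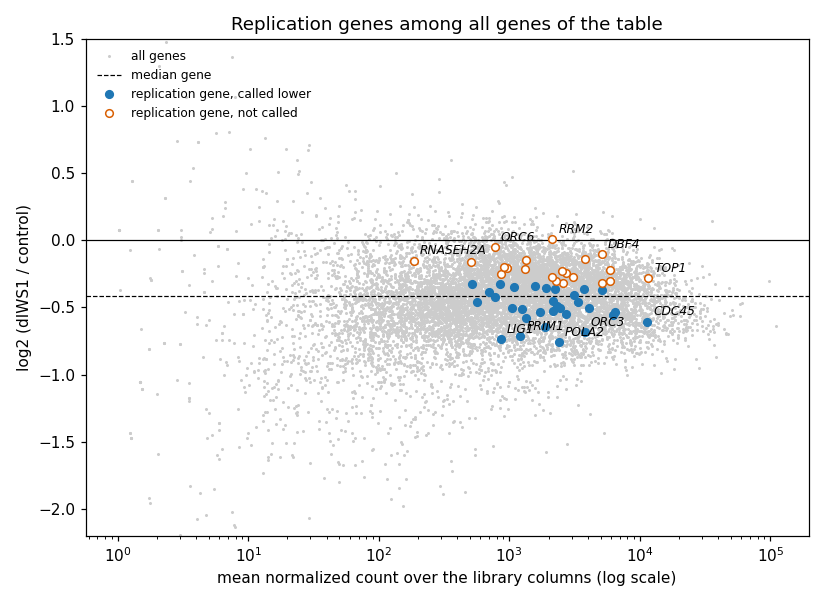
Log2 ratio of dIWS1 to control on the spike-in scale (y axis) against the mean normalized reads over the library columns (x axis, log scale) for all genes (grey) and the 52 replication genes, filled where called lower and open where not. The replication genes lie on both sides of the median gene (dashed line, −0.41), 31 above and 21 below; with total reads the median gene is at 0.03.

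Column 2 gave higher ratios than column 1 for most replication genes under spike-in scaling. The median log2 ratio to control was −0.43 in column 1 and −0.29 in column 2, where the median gene was at −0.47 and −0.36. After spike-in scaling 49 of 52 replication genes were below the control in both columns, as were 93.8% of all genes with a mean of at least 100, and the exceptions were *DBF4*, *ORC6* and *RRM2*, each with column 2 above the control. Over the 52 genes the ratios of the columns had a Pearson's r of 0.876, in part because both were taken against the same control reads. Column 1 over column 2 had a median log2 ratio of −0.17 and was below 0 for 49 of the 52, against a median of −0.12 over all genes with such a mean, of which 82.6% were below 0. *TOP2A* (−0.34, counting error 0.03), *GINS2* (−0.33, counting error 0.07), *RPA1* (−0.32, counting error 0.05) and *CDC6* (−0.31, counting error 0.05) stood furthest to that side. Their reads in column 1 were thus lower relative to column 2 than those of the median gene. *CDT1* (0.04, counting error 0.10), *ORC3* (0.03, counting error 0.04) and *CDC7* (0.00, counting error 0.05) were on the other side, and none of these 3 differed from 0 by more than its counting error. Against the median gene they were higher by 0.16, 0.15 and 0.12, more than the counting error in each.

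**Figure D3:**
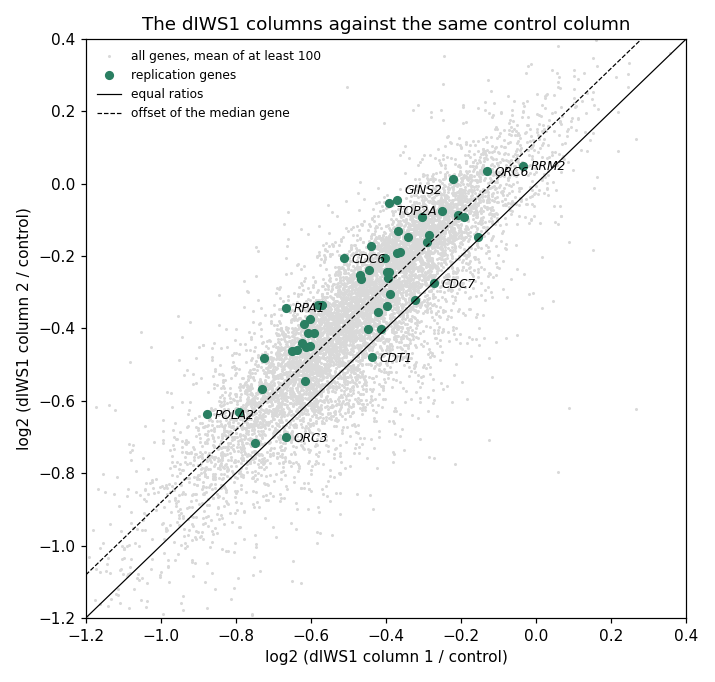
Log2 ratio to the control column of dIWS1 column 1 (x axis) and of dIWS1 column 2 (y axis), spike-in scaled, for all genes whose mean reaches 100 normalized reads (grey) and the 52 replication genes (green); genes beyond the ends of the axes are not drawn. *TOP2A*, *GINS2*, *RPA1* and *CDC6* lie above the dashed line, which marks the offset of the median gene, and *ORC3*, *CDT1* and *CDC7* near the solid line of equal ratios.

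Levels of different genes were compared per kb of gene span, because TT-seq reads introns as well as exons. In the control column the 52 genes had a median of 75.9 normalized reads per kb, against 41.2 over all genes with a RefSeq span. *CDC45* was the highest with 332, and its dIWS1 columns were at 201 and 238. *MCM3* followed with 276 (209 and 233 in dIWS1), then *FEN1* with 217 and *TOP2A* with 216. With counting error only and 1 control column, the order of such close neighbours as *FEN1* and *TOP2A* was not tested. *LIG1* was the lowest, at 19.6 in control and 11.7 and 11.9 in dIWS1. The choice of span changed the level most for 4 genes whose RefSeq span is over 2 times that of the GENCODE canonical transcript, and both levels are given for these. *RRM2* had 24.0 normalized reads per kb over its RefSeq span of 88.4 kb but 245 over its canonical 8.68 kb. *RFC3* had 36.0 against 296, *PCNA* 80.8 against 188 and *MCM5* 58.9 against 128. Each pair divides the same reads by both spans. The RefSeq release with which the reads were counted is not given, so which span they cover was not tested. The log2 ratio showed little relation to this level over the 52 genes (Pearson's r 0.06, Spearman's rho 0.10), given as a description of genes that share libraries.

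**Figure D4:**
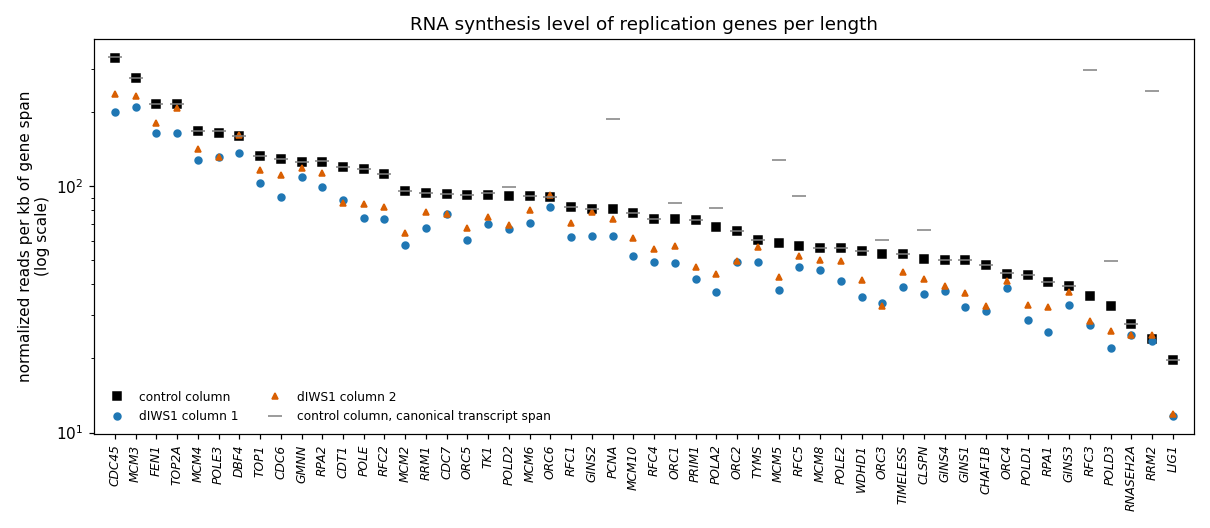
Normalized reads per kb of RefSeq gene span (y axis, log scale) for the 52 replication genes (x axis, ordered by the control column), with the control column as squares, dIWS1 columns 1 and 2 as circles and triangles, and the control column per kb of canonical transcript span as dashes. Levels run from 332 for *CDC45* to 19.6 for *LIG1* in control, and the dashes of *RRM2*, *RFC3*, *PCNA* and *MCM5* stand far above their squares.

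Gene span had a weak relation to the ratio in the group (Pearson's r −0.25 with log10 span, Spearman's rho −0.28, over 52 genes). The 6 replication genes up to 10 kb long, *CDT1*, *POLD2*, *FEN1*, *POLE3*, *RNASEH2A* and *ORC6*, had a median log2 ratio of −0.33 on the spike-in scale, where the 2368 genes of that length in the table had −0.49. For the 10 longer than 65 kb, which run from *ORC3* to *RRM2*, the median was −0.41 against −0.49 for 2429 genes. Between these lengths, the 17 shorter genes had a median of −0.32 against −0.39 for 2495 genes, and the 19 longer ones, which went the other way, −0.46 against −0.34 for 2625 genes. All of these are RefSeq spans. The canonical spans of *RRM2*, *RFC3*, *PCNA* and *MCM5*, at 8.68, 19.4, 5.01 and 25.3 kb, would put each of them in a shorter class. The relation to span and the medians by length were not recomputed with canonical spans.

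Other genes of DNA replication and S phase, taken from a list of 63 that holds none of the genes above, gave a like picture. Of these 56 were in the table, 32 were called lower with spike-ins (57.1%, against 64.5% of all genes) and 0 higher, and 24 were not called (0 higher also at an unadjusted limma p under 0.05). Their median log2 ratio was −0.37, and 0.05 relative to the median gene. The lowest were *PRIMPOL*, which restarts stalled forks, at −0.84, *TFDP1*, the partner of E2F factors, at −0.75, and *POLD4*, a small subunit of polymerase delta, at −0.71. *FBXO5*, an inhibitor of the anaphase-promoting complex, at 0.12, *CCNE2*, cyclin E2, at 0.10, and *E2F7*, an E2F repressor, at −0.03 were the highest. *FBXO5* had 2073 reads in control and 2071 and 2181 in dIWS1, and *CCNE2* had 442, 439 and 458. Relative to the median gene *PRIMPOL* was called lower (−0.43, adjusted p = 0.0224) and *FBXO5* (0.53, adjusted p = 0.00831) and *CCNE2* (0.51, adjusted p = 0.00306) higher. These were 1 lower and 2 higher of 56 genes, where 5.2% of all genes were called lower and 2.68% higher.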

How the data were processed

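TT-seq was measured in 2 control and 2 dIWS1 libraries, which the labels number as replicates and the paper describes as biological replicates. The authors aligned reads with STAR 2.6.0 to GRCh38 with added spike-in sequences, counted reads per RefSeq gene by strand, removed overlapping genes, kept genes with a median RPK over 10, and ran DESeq2 with spike-in size factors. The deposited table gives 1 comparison. Its signal per gene was made by the authors as the mean over library columns of read counts divided by size factors. The authors' log2 fold change, its error, the Wald statistic, the p-value and the adjusted p-value, 5 columns, are not reported, and the deposited log2 values served only to split the means and to see which column is the denominator, taken as control.

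Reads were recovered by writing each mean, given to 15 digits, as whole multiples of 3 steps, and 10136 of 10136 genes with a mean above 0 had 1 split. Means above 60 were searched only near the control reads implied by the deposited log2 value, which limits the number of splits found. From the mean alone 50 of the 52 replication genes had 1 solution. *CDC45* and *TOP1* had 2 each, the split used among them. The 3 recovered columns are tied to a group but to no replicate. The control column carries a weight of 2 in the means, as if entered 2 times, and was counted once. The main test was limma voom (limma 3.58.1 in R 4.3.3) with library sizes set by the size factors, two-sided, with Benjamini-Hochberg adjustment over 10136 genes. It has 1 residual degree of freedom, so the error of a gene is nearly the spread pooled over all genes. A gene with an adjusted p under 0.05 was called. The plan had foreseen counts or a comparison table, and the latter applied. Ratios per column used a pseudocount of 0.5, and their errors cover counting only. Spans, promoters and overlaps came from RefSeq GRCh38.p14, and canonical transcripts and strands from GENCODE; 97.8% of genes had a span. No promoter sequence was at hand for *MCM4*, *MCM5*, *GINS4*, *POLD3*, *RPA2* and *RPA3*. Scripts ran in Python 3.11.15 and were tested on simulated data.

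The members and the lists of other genes were chosen with earlier results of these data known. Full values are given for the lowest and highest gene of each role, for *MCM2* to *MCM6*, *PCNA*, *RRM2*, *TYMS*, *TOP1* and *TOP2A*, and for each member called relative to the median gene; *CDC6*, *FEN1* and *TK1* were added after their values were seen. In the other list the 3 highest and 3 lowest with a mean of at least 100 are named. Alternatives were other thresholds, minimum means, minimum changes, scalings, centrings, pseudocounts, spans and start sites, limma trend, and each dIWS1 column left out.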

Additional observations from a re-analysis of the deposited data

How the results depend on the processing

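The count of 31 replication genes called lower with spike-ins ranged from 22 to 39 over other thresholds, minimum means, limma trend and a control entered 2 times, and was 16 with a change of at least 0.5. The shares of all genes under those settings were not computed. With library sizes from total reads it was 4, with 7 called higher in place of 0, the median log2 ratio of the members was 0.0841 in place of −0.36, and the median of column 1 over column 2 was −0.0491. That scaling sets the direction by its construction, since it removes any change common to all genes. It turned 31 genes above 0: *POLD2* 0.0171, *ORC2* 0.0342, *GINS4* 0.0537, *RFC3* 0.0744, *CLSPN* 0.0762, *RRM1* 0.0815, *CDC6* 0.0833, *TK1* 0.0949, *TIMELESS* 0.0997, *FEN1* 0.11, *POLE3* 0.12, *MCM3* 0.12, *MCM4* 0.12, *POLE2* 0.14, *RFC1* 0.14, *TOP1* 0.16, *MCM6* 0.17, *CDC7* 0.17, *PCNA* 0.19, *RPA2* 0.20, *MCM8* 0.22, *TOP2A* 0.22, *RFC5* 0.23, *GINS2* 0.24, *TYMS* 0.24, *GINS3* 0.28, *RNASEH2A* 0.29, *GMNN* 0.29, *ORC4* 0.30, *DBF4* 0.34 and *ORC6* 0.39.

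Relative to the median gene, the 0 genes called lower became 2 with the control entered 2 times and 5 with total reads. The 1 gene called higher, *RRM2*, became 0 with a minimum mean of 10, with limma trend and at an adjusted p under 0.01. It became 2 with centring on the median of all genes and at an adjusted p under 0.1, 5 with the control entered 2 times and 5 with total reads, and the adjusted p of *RRM2* ranged from 0.00706 to 0.127. Except with total reads, the shares of all genes under these settings were not computed. Centring on the median of all genes moved *POLD2* from −0.0121 to 0.000667. Without each dIWS1 column in turn the median log2 ratio ranged from −0.43 to −0.29. The median level per kb was 90.6 with canonical spans in place of 75.9. The 19 promoters with E2F-type letters became 20 with the first listed start site.

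No paired analysis was possible because the recovered columns carry no replicate numbers. TMM scaling of the recovered reads was not run. Neither was a test without each column, which has no residual degrees of freedom. With 1 control column, the spread among controls is unknown, and genes near the threshold, such as *MCM3* and *MCM4* (adjusted p = 0.0489 with a minimum mean of 100), change sides with small changes of the setting.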
